A study of Drosophila melanogaster with 384 samples.

Results

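The nuclear-encoded genes of the mitochondrial respiratory chain were described in whole flies of 96 inbred lines. The genes were chosen by name: a FlyBase gene marked OK in the count table was taken when its symbol began with ND-, Sdh, UQCR, COX followed by a digit, or ATPsyn. The rule gave 88 genes out of 39823 gene models marked OK, of which 17097 were FlyBase genes. By symbol, 40 of the 88 belong to complex I, 8 to complex II, 9 to complex III, 16 to complex IV and 15 to complex V. There were 63 general genes and 1 assembly factor, Sdhaf3. The other 24 carry an L in the ending of the name and are called paralogs here. Of these, 20 have a general counterpart among the 88 genes, and 4 (COX6AL, COX6AL2, COX6CL and ATPsynepsilonL) were set beside levy, levy, cype and sun, subunit genes whose names fall outside the rule.

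The respiratory chain passes electrons from NADH and succinate to oxygen and pumps protons across the inner mitochondrial membrane, and their return drives the making of ATP. Complex I oxidizes NADH, complex II oxidizes succinate as part of the tricarboxylic acid (TCA) cycle, complex III reduces cytochrome c, complex IV reduces oxygen, and complex V is ATP synthase. In Drosophila many of these genes have duplicated copies that are known for expression in the testis, where mitochondria are reshaped as sperm form, while the general copies serve most tissues.

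The lines belong to the Drosophila melanogaster Genetic Reference Panel (DGRP), wild-derived lines made nearly homozygous by inbreeding. Males and females of the 96 lines were each sequenced as pools of mated young adult whole flies reared on medium with 10% ethanol, with 2 replicate libraries for each line and sex, 384 in all. Both sexes had been exposed to ethanol and flies from standard medium were not analysed here, so no value below is a response to ethanol. In whole flies, fewer cells of a type and less RNA per cell cannot be told apart.

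Male libraries held 6482252 to 17422329 counts (median 10224504) and female libraries 5360410 to 16354156 (median 10472988). The 88 genes took a median of 2.03% of the counts in males (1.32% to 2.68%) and 1.64% in females (1.11% to 2.55%). Some libraries held RNA of the other sex: in 12 female libraries the summed level of accessory gland or testis genes passed 1% of the male median (at most 4.98%), and in 6 male libraries that of eggshell genes of the ovary follicle passed 1% of the female median (at most 9.28%). They came from 17 lines, and values over the other 79 lines are given where a result rests on them. Flow cells were not balanced between the sexes: the 2 replicates were split over the flow cells named A and B here for 76 male lines but for 45 female lines.

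Levels were compared between genes as the mean CPM (read counts scaled to the size of the library) per kilobase (kb) of exon length. ATPsynbeta, the catalytic subunit of ATP synthase, was the highest, with 1072 CPM per kb in males and 1117 CPM per kb in females. The highest gene of complex I was ND-MLRQ, whose human counterpart is now placed in complex IV, with 773 CPM per kb in males and 748 CPM per kb in females. COX7B led complex IV with 719 CPM per kb in males and 740 CPM per kb in females. Small accessory subunits thus stood at the top of both of these complexes. UQCR-14 led complex III with 580 CPM per kb in males and 535 CPM per kb in females, but another gene lies opposite 100% of its exon length, and whether the counting used strand is not given in the sources used here. UQCR-C1, a core protein of complex III, followed with 484 CPM per kb in males and 403 CPM per kb in females. SdhA, the flavoprotein that oxidizes succinate, led complex II with 289 CPM per kb in males and 196 CPM per kb in females. The median over the 62 general genes with counts was 203.8 CPM per kb in males and 169 CPM per kb in females, and over the 24 paralogs in males it was 41.4 CPM per kb. ND-MNLL was listed at 0 in all 384 libraries. In the BDGP6 annotation another gene on the same strand covers 100% of its exon length, so this 0 is not read as a level. Of the general genes with counts ND-AGGG, an accessory subunit of complex I, was the lowest, with 17.5 CPM per kb in males and 21.8 CPM per kb in females.

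Most general genes differed little between the sexes. The comparison asked which genes differed between males and females of the same line, by edgeR's quasi-likelihood test on counts summed over replicates, with line as a block and a Benjamini-Hochberg adjusted p under 0.05 for a call. Of 18062 gene models tested 57.8% were called higher in males and 37% lower. Of the 62 general genes tested 38 were called higher in males and 10 lower, and 14 passed in neither direction. Their median log2 fold change (males over females) was 0.09, against 0.35 over all genes tested. The split depended on the scaling: it was 56 higher and 5 lower with DESeq2 size factors, and 53 higher and 5 lower with total counts, under which the median of all genes was 0.50 and 0.47. Relative to that median the general genes lay at -0.26 under each of the 3 scalings, and 7 of the 62 lay above it under each (ND-13A, ND-B17.2, ND-B8, SdhA, SdhB, SdhD and UQCR-Q). A change of scaling shifts all genes by nearly the same amount, so this agreement between scalings was fixed in advance. Within single lines the median difference over the general genes, males minus females, was between -0.37 and 0.63 log2 units (median 0.18) and was above 0 in 73 of 96 lines.

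**Figure D1:**
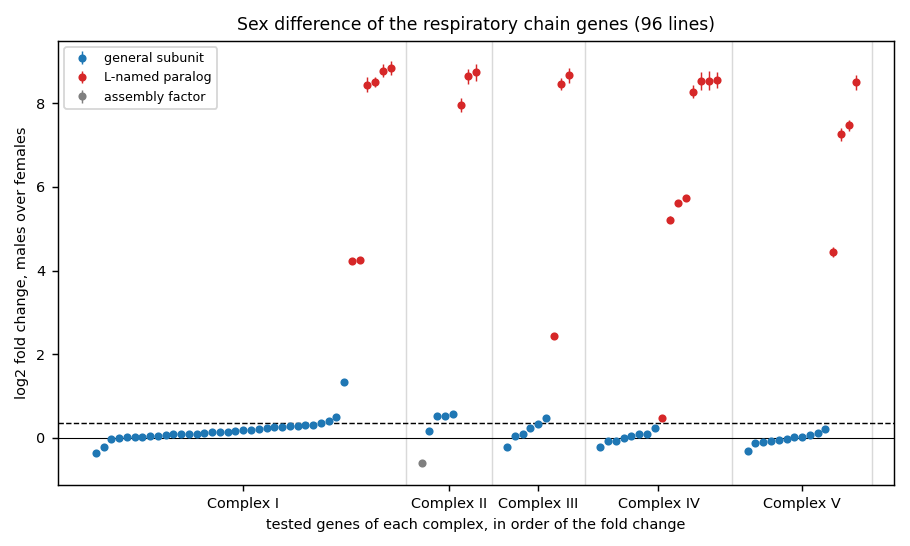
Log2 fold change of males over females for the 87 tested genes, by complex and in order of the fold change; bars are standard errors from limma, the solid line is 0 and the dashed line is the median of all 18062 genes tested (0.35). General genes lie near 0, with ND-B8 highest at 1.33, and 23 of the 24 paralogs lie above 2, the exception being COX7AL2 at 0.48.

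In complex II all 4 general genes were called higher in males. SdhA had 285 to 1002 CPM over the male lines (median 808) and 255 to 784 CPM over the female lines (median 538). Its log2 fold change was 0.53 ± 0.02 (SE), with an edgeR adjusted p of 5.87e-46, and males were higher in 96 of 96 lines although the ranges over lines overlapped. SdhB, the iron-sulfur subunit, had 138 to 284 CPM in males (median 200) and 75.7 to 205 CPM in females (median 130), a log2 fold change of 0.55 ± 0.03. SdhD, a membrane anchor, had 115 to 248 CPM in males (median 161) and 75.4 to 174 CPM in females (median 108), a log2 fold change of 0.52 ± 0.02. Males were higher in 92 lines for SdhB and in 95 for SdhD, again with ranges that overlapped. SdhC, the other membrane anchor, had 140 to 251 CPM in males (median 189) and 92 to 249 CPM in females (median 165). At 0.16 ± 0.03 its log2 fold change was below that of the median gene, so the subunits of this complex were not shifted alike. Sdhaf3, which assists the assembly of complex II, had 5.58 to 11.1 CPM in males (median 7.82) and 7.89 to 15.4 CPM in females (median 11.4). Males were higher in only 2 of 96 lines, and the log2 fold change was -0.61 ± 0.03 (edgeR adjusted p = 1.07e-31).

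In complex I, 24 of 33 general genes were called higher in males and 2 lower. ND-B8, an accessory subunit, stood apart with 9.78 to 51.2 CPM in males (median 26.4) and 1.34 to 29.2 CPM in females (median 10.5). The log2 fold change was 1.33 ± 0.05 (edgeR adjusted p = 6.13e-43), and males were higher in 95 of 96 lines although the ranges overlapped. ND-13A, another accessory subunit, had 97.8 to 195 CPM in males (median 132) and 60.6 to 137 CPM in females (median 92.2), a log2 fold change of 0.50 ± 0.02. The genes called lower were ND-AGGG and ND-ACP, the mitochondrial acyl carrier protein. ND-ACP had 121 to 237 CPM in males (median 149) and 123 to 249 CPM in females (median 173), a log2 fold change of -0.23 ± 0.02 that was 0.02 when only genes with a mean of at least 50 counts were kept. ND-AGGG had 7.06 to 40.7 CPM in males (median 12.2) and 6.94 to 38.3 CPM in females (median 15.7). Its log2 fold change of -0.37 ± 0.04 did not hold in both replicates: it was -0.87 without replicate 1 and 0.07 without replicate 2.

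Complexes III, IV and V gave smaller and mixed differences. In complex III, 4 of 6 general genes were called higher in males and 1 lower. The gene called lower was UQCR-11, with 69.4 to 206 CPM in males (median 117) and 82.3 to 232 CPM in females (median 129), a log2 fold change of -0.22 ± 0.03 that was 0.03 under the filter of 50 counts. In complex IV, 3 of 8 were called higher and 3 lower. COX7A had 83.9 to 158 CPM in males (median 101) and 74.8 to 188 CPM in females (median 117), a log2 fold change of -0.23 ± 0.02 that was 0.03 under the filter of 50 counts. In complex V, 3 of 11 were called higher and 4 lower. ATPsyndelta, a subunit of the central stalk, had 111 to 238 CPM in males (median 163) and 126 to 263 CPM in females (median 197), a log2 fold change of -0.33 ± 0.02 (edgeR adjusted p = 2.39e-25). Males were higher in 9 of 96 lines. In the annotation 35.6% of its exon length lies opposite another gene. ATPsynbeta had 1703 to 3673 CPM in males (median 2545) and 1852 to 3888 CPM in females (median 2592), a log2 fold change of -0.11 ± 0.02 that was 0.04 with DESeq2 size factors.

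All 24 paralogs were called higher in males. In 20 of the 24 every male line mean lay above every female line mean, which held for 12.9% of all genes tested. Their median log2 fold change was 8.36, and 19 of the 24 lay above 5, against 13.2% of all genes tested. In females 7 of the 24 reached a mean of 5 counts in a library, with log2 fold changes from 0.48 (COX7AL2) to 5.74 (COX7CL). The other 17 entered the test through their male counts, so a call lower in males was not open to them. Their calls, their lack of overlap and the size of their fold changes rest on female counts near the floor. The summed level of the 23 paralogs other than COX7AL2, which was left out after its values were seen, was 525 to 1621 CPM in male libraries (median 883). In the 12 female libraries with male RNA the sum was 17.3 to 52.0 CPM (median 32.6), and in the other 180 female libraries it was 3.35 to 25.4 CPM (median 10.8). With COX7AL2 the sum was 609 to 1698 CPM in males and 18.2 to 182 CPM in females. Over the 79 lines without RNA of the other sex all 24 were again called higher in males, with a median log2 fold change of 8.87. By BDGP6, 1 of the 24 paralogs (SdhBL) and 12 of the 63 general genes lie on the X chromosome.

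COX4L, a copy of the complex IV subunit gene COX4, had the highest level per length of the paralogs in males, 155 CPM per kb. It had 72.4 to 189 CPM in males (median 112) and 0 to 2.87 CPM in females (median 0.22), with a log2 fold change of 8.28 ± 0.16 (edgeR adjusted p = 1.48e-77). COX7AL had 29.2 to 111 CPM in males (median 62.2) and 0 to 4.54 CPM in females (median 0.057). These ranges did not overlap between the sexes. SdhBL had 54.2 to 176 CPM in males (median 89.4) and 0 to 5.55 CPM in females (median 0.066). In complex I, ND-24L had 18.3 to 54.3 CPM in males (median 29.3) and 0 to 1.79 CPM in females, a log2 fold change of 8.84 ± 0.17 that was 10.09 over the 79 lines without RNA of the other sex. ND-20L had 5.34 to 16.6 CPM in males (median 10.9) and 0 to 0.27 CPM in females, where 171 libraries had no count. Its counterpart ND-20 and that of ND-24L are core subunits that carry electrons through complex I.

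Other paralogs were measured at a low level in most female libraries. ND-51L1 had 21 to 64.1 CPM in males (median 36.5) and 0.70 to 7.49 CPM in females (median 1.79), a log2 fold change of 4.22 ± 0.06. ND-51L2 had 12.5 to 49.5 CPM in males (median 29.6) and 0.36 to 5.44 CPM in females (median 1.37), a log2 fold change of 4.25 ± 0.06. Both are copies of the subunit that binds NADH. COX5BL, whose exons lie opposite another gene over 100% of their length, had 36.7 to 90.1 CPM in males (median 54.2) and 0.35 to 3.72 CPM in females (median 1.01). COX7CL had 22.6 to 61.1 CPM in males (median 35.4) and 0.13 to 1.90 CPM in females (median 0.62). UQCR-11L was less sex-limited than these, with 2.68 to 35.7 CPM in males (median 21.2) and 1.51 to 7.44 CPM in females (median 3.84), a log2 fold change of 2.44 ± 0.05.

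COX7AL2 differed from the other paralogs in its level in females. It had 29.8 to 128 CPM in males (median 76.0) and 12.0 to 134 CPM in females (median 51.4). The ranges overlapped almost entirely, and the log2 fold change was 0.48 ± 0.05 (edgeR adjusted p = 1.46e-14), with males higher in 77 of 96 lines.

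Each paralog was set beside its general counterpart within each line. In 17 of the 20 pairs the sex difference of the paralog was larger than that of the counterpart in all 96 lines. The other pairs were SdhAL with SdhA (95 lines), UQCR-11L with UQCR-11 (95 lines) and COX7AL2 with COX7A (89 lines). With the 4 pairs made with genes outside the rule the count was 21 of 24. Of these 24 paralogs 7 reached the count filter in females. The other 17 were near the floor in females and entered through their male counts. For them a larger sex difference than that of the counterpart was nearly fixed in advance, and it is not read as a result. In males the counterpart had the higher mean CPM per kb in every pair. The share of the paralog in the summed CPM per kb of its pair, as the median over male lines, ranged from 0.648% to 42.2% over the 20 pairs, with a median of 14.4%. COX7AL held the largest share, 42.2% (24% to 59.3% over lines), with 109 CPM per kb beside 147 CPM per kb for COX7A. UQCR-11L held 39.7%, COX7AL2 34.9% and COX4L 26.1%. ATPsynbetaL held the smallest share, with 7.12 CPM per kb beside 1072 CPM per kb for ATPsynbeta. In complex II the shares were 21.7% for SdhBL, 16.1% for SdhCL and 8.43% for SdhAL. The copies in complex I held 4.62% (ND-51L1) to 22.7% (ND-B14.5AL), and in complex V ATPsynCF6L held 13.1% and ATPsynGL 10.5%.

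The levels per length behind these shares are given for males. In complex I of males the mean CPM per kb was 14.2 for ND-20L beside 122 for ND-20, 35.8 for ND-24L beside 189 for ND-24, and 25.9 for ND-49L beside 234 for ND-49. ND-51 had 345 CPM per kb beside 17.3 for ND-51L1 and 18.8 for ND-51L2, and ND-B14.5A had 112 beside 32.4 for ND-B14.5AL. In complexes II and III of males SdhB had 164 CPM per kb beside 47.9 for SdhBL, SdhC had 210.2 beside 41.1 for SdhCL, and UQCR-6.4 had 209.7 beside 30.6 for UQCR-6.4L. In complex IV of males COX4 had 426 CPM per kb beside 155 for COX4L, COX5B had 427 beside 85.2 for COX5BL, and COX7C had 303 beside 89.8 for COX7CL. In complex V of males ATPsynCF6 had 275 CPM per kb beside 41.8 for ATPsynCF6L, and ATPsynG had 413 beside 49.2 for ATPsynGL. The paralogs without a counterpart in the rule had 53.8 CPM per kb (COX6AL), 24.9 (COX6AL2, the lowest of complex IV), 63.6 (COX6CL) and 8.94 (ATPsynepsilonL) in males. On the same strand another gene covers 67% of the exon length of COX6AL2.

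**Figure D2:**
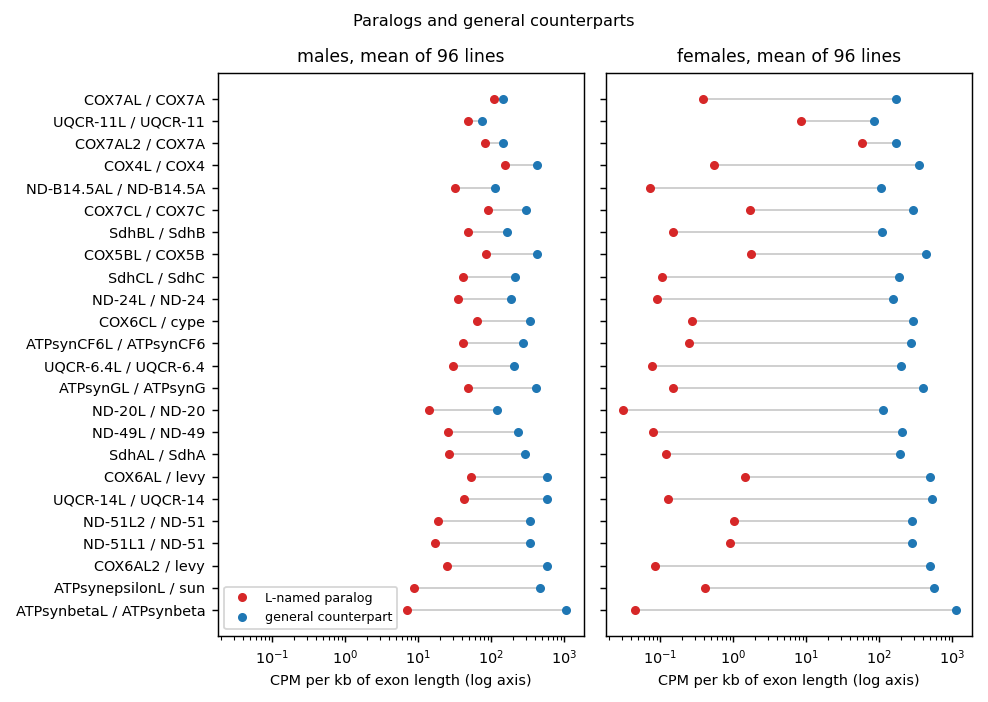
Mean CPM per kb of exon length (log axis) of 24 paralogs (red) and their general counterparts (blue) over 96 lines, males on the left and females on the right, in order of the share of the paralog in males. In males the gap is smallest for COX7AL (109 beside 147) and widest for ATPsynbetaL (7.12 beside 1072), and in females UQCR-11L (8.62) and COX7AL2 (58.9) are the paralogs with the highest levels.

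Line-to-line differences were tested within each sex over single libraries by edgeR. In males 84.2% of 18944 gene models passed. Of the paralogs 23 of 24 passed, the exception being COX7AL2 (F = 0.917), and their median F was 5.02 against 3.01 over all genes tested. This exception depends on the model: with the pool as a covariate in limma COX7AL2 passed too, as did 91% of all genes. The 5 largest F values of the 87 genes in males belonged to paralogs: SdhAL (10.4), UQCR-14L (9.81), ND-49L (9.45), ND-51L1 (7.77) and UQCR-6.4L (6.68). Those of SdhAL and UQCR-6.4L each include a single line with almost no counts, given below. ND-49L, a copy of a core subunit of complex I, had 19.8 to 77.3 CPM over male lines (median 42.9), lowest in line 589 and highest in line 801. UQCR-14L had 8.94 to 42.9 CPM over male lines (median 20.3), lowest in line 721 and highest in line 280.

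For some paralogs a single male line held almost no counts. SdhAL had 1 and 0 counts in the male libraries of line 705, or 0.085 and 0 CPM, while the next lowest line had 32.3 CPM and the median line 56.5 CPM. In that line the 22 other paralogs, COX7AL2 left out, lay between -0.72 and 0.05 log2 units from their median lines (median -0.44). UQCR-6.4L had 1 and 0 counts in males of line 40, or 0.095 and 0 CPM, while the next lowest line had 5.76 CPM and the median line 13.1 CPM. The 22 other paralogs of line 40 lay between -0.45 and 0.09 log2 units from theirs. UQCR-11L had 2.09 and 3.27 CPM in males of line 890, close to the 2.42 CPM of females of that line, while the next lowest male line had 8.39 CPM and the median male line 21.2 CPM. In each of these lines the replicates were alike, and the 3 lines were picked out after their values were seen.

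**Figure D3:**
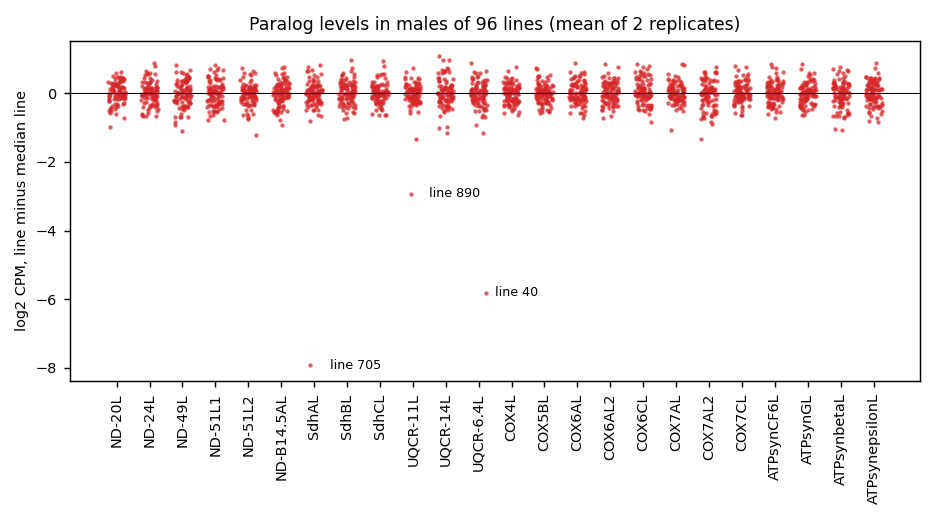
Log2 CPM of each of 24 paralogs in males as the line mean minus the median line, 1 point for each of 96 lines (mean of 2 replicates). Nearly all points lie within 1 log2 unit of 0; the labelled points are SdhAL in line 705 (-7.93), UQCR-6.4L in line 40 (-5.81) and UQCR-11L in line 890 (-2.92).

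In males the general genes varied less from line to line, relative to their replicates, than the paralogs did: 39 of 62 passed, with a median F of 1.53. In females 72.2% of 14760 gene models passed and 52 of 62 general genes did, with a median F of 1.72 against 1.87 over all genes tested. Over the general genes the standard deviation of log2 CPM between line means had a median of 0.21 in males and 0.24 in females. That between replicates of a line was 0.24 in males and 0.27 in females. The former is taken over means of 2 libraries and the latter over single libraries, so they are not on the same scale. The count in females changed with the lines kept: of 70 chain genes tested in females 58 passed over all lines, 37 passed over the 79 lines without RNA of the other sex (72.6% of all genes), and 20 passed over the 44 lines on flow cells A and B in both sexes (51.9% of all genes). With the pool (flow cell and lane) as a covariate in limma 69 of 70 passed (84.1% of all genes). In males 62 of 87 chain genes passed over all lines, 66 over the 79 lines (82.7% of all genes), 44 over the lines on flow cells A and B (74.3% of all genes) and 87 with the pool as a covariate in limma (91% of all genes).

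The largest F values in females were those of ND-B14 (4.403), ND-B8 (3.81), ND-B12 (3.24), ATPsynE (3.18) and UQCR-11 (2.88). ND-B14, an accessory subunit of complex I, had 48.0 to 138 CPM in males (median 77.9) and 39.3 to 119 CPM in females (median 69.2). Male and female line means of ND-B14 correlated at r = 0.65 over 96 lines. ND-B8 was lowest in females of line 375, with 2.22 and 0.45 CPM in the replicates, and highest in line 83, with 30.1 and 28.3 CPM. It had 3 male lines and 19 female lines more than 1 log2 unit from the median line, and the number in females was the highest of the 63 genes examined there. In 9 of the 19 both replicates passed that limit on the same side, while line 804, for example, had 9.42 and 1.41 CPM. ND-B12, another accessory subunit, had 238 and 230.9 CPM in males of line 28 beside a median line of 115 CPM. In females ND-B12 had 252 and 218 CPM in line 371 beside a median line of 98.7 CPM. ATPsynE, a small subunit of the membrane part of ATP synthase, had 107 to 339 CPM in males (median 245) and 84.9 to 327 CPM in females (median 211). Of the 5 male lines more than 1 log2 unit below the median, line 181 had 109 and 107 CPM in its replicates but line 280 had 157 and 56.7 CPM, so not all of the low values were shared by replicates.

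SdhA and ND-AGGG had lines far from the median in both sexes. SdhA had 317 and 252 CPM in males of line 748, while the next lowest male line had 519 CPM and the median line 808 CPM. In females of line 748 SdhA had 252 and 257 CPM, while the next lowest female line had 305 CPM and the median line 538 CPM. ND-AGGG had 39.3 and 42.1 CPM in males of line 820 and 40.6 and 36.1 CPM in females of it, beside median lines of 12.2 CPM in males and 15.7 CPM in females. The line test did not pass for ND-AGGG in males (F = 0.735, edgeR adjusted p = 0.945). There the standard deviation of log2 CPM was 0.38 between line means of 2 replicates and 0.70 between single replicates. In females the line test passed for ND-AGGG (F = 2.23, edgeR adjusted p = 0.000102). With the pool as a covariate in limma all 87 chain genes passed in males, ND-AGGG among them, beside 91% of all genes. The result in males thus depends on the model. Line 320 was also more than 1 log2 unit above the median for ND-AGGG in both sexes. In all, 27 pairs of a gene and a line passed this limit in males, in 14 of 87 genes, and 33 in females, in 6 of 63 genes, and the limit of 1 log2 unit was chosen after the values were seen.

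**Figure D4:**
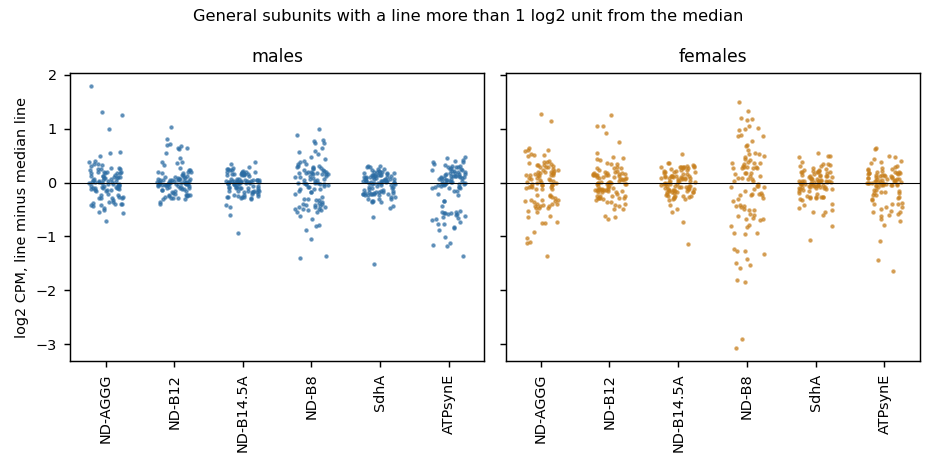
Log2 CPM of 6 general genes as the line mean minus the median line, males on the left and females on the right, 1 point for each of 96 lines; the genes are those with at least 1 line more than 1 log2 unit from the median line. ND-B8 spreads widest in females (1.34 to 29.2 CPM), ND-AGGG has high lines in both sexes, and the lowest point of SdhA in each sex is line 748.

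Whether the sex difference varied among lines was tested over all 384 libraries by the sex by line interaction in edgeR. It passed for 26 of 87 chain genes, beside 50.3% of all genes tested. Of the 62 general genes 2 passed (ND-B14 and UQCR-11), and Sdhaf3 passed. Of the 7 paralogs that reached the count filter in females 6 passed, COX7AL2 being the one that did not, and 6 passed over the 79 lines without RNA of the other sex. The other 17 paralogs entered the test through their male counts, so no line effect in females was measured for them and their passing is not read as a difference between the sexes. The largest F values, all of such genes, were those of COX7AL (4.66), COX6CL (4.60) and SdhBL (3.56). Over the 79 lines without RNA of the other sex 20 of 87 passed (46.6% of all genes), and the F values were 2.63 for COX7AL, 6.05 for COX6CL and 4.52 for SdhBL. COX6CL reached 6.05 CPM in females of line 280, with a female median of 0. For general genes the line means of the sexes correlated with a median r of 0.43 (0.22 to 0.73) over 96 lines, and for the 7 paralogs that reached the filter in females with a median r of 0.09 (-0.04 to 0.29).

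The line means of the general genes varied together. The mean Pearson r over the 1891 pairs of 62 general genes, over 96 line means of log2 CPM, was 0.59 in males and 0.62 in females. Over all pairs of the genes tested it was 0.015 in males and 0.013 in females. In males 1888 of the 1891 pairs had an r above 0, and in females 1883. The points share libraries, depth and flow cells, and with the mean of each pool subtracted the values were 0.61 in males and 0.62 in females. The mean of these genes correlated between replicate 1 and replicate 2 of the lines at only r = 0.22 in males and 0.26 in females. Variation between libraries thus enters the line means, and this co-variation is not read as an effect of line. Pairs from the same complex had a mean r of 0.57 in males and 0.59 in females, and pairs from different complexes 0.60 in males and 0.63 in females. Complex I supplied 528 of the 632 pairs from the same complex, with a mean r of 0.55 in males and 0.58 in females. Pairs within complex V had a mean r of 0.71 in males and 0.64 in females, and pairs within complex IV 0.66 in males and 0.73 in females. ATPsynO, a subunit of the peripheral stalk of ATP synthase, was closest to the mean of the other general genes (r = 0.95 in males and 0.94 in females). COX7A was farthest from it in males (r = 0.24) and ATPsynE in females (r = 0.18).

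The mean of the general genes, taken as a score, was less repeatable between replicates than that of the paralogs. Its standard deviation over lines was 0.17 log2 units in males and 0.20 in females, and replicate 1 and replicate 2 of the lines correlated at r = 0.22 in males and 0.26 in females. Of the variance of the score, 53.3% in males and 59.7% in females lay between lines, and 20.8% in males and 25.6% in females between pools, shares that overlap. With 2 libraries a line, 49.7% would lie between lines with no line effect, and 7.33% in males and 7.85% in females between pools with no pool effect. The male and female scores correlated at r = 0.36 over 96 lines. For the 23 paralogs without COX7AL2 the score in males had a standard deviation of 0.27 log2 units, the replicates correlated at r = 0.79, and 87.7% of the variance lay between lines, beside the same 49.7%. It was lowest in line 705 (-0.72) and highest in line 808 (0.76). The score of line 705 includes SdhAL, at -7.93 log2 units from its median line, while the 22 other paralogs there had a median of -0.44. Line 228 was next lowest, with a score of -0.59, so line 705 is not read as the lowest for the paralogs as a set.

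Paralogs varied together in males, and apart from the general genes. Their mean r was 0.53 over all 24 and 0.59 without COX7AL2, and between general genes and paralogs it was -0.06. Of the 1488 pairs of a general gene and a paralog 390 had an r above 0. COX7AL2 was the exception again: its r with the mean of the general genes was 0.71 in males and 0.82 in females, and its r with the mean of the other paralogs was -0.21. COX5BL (r = 0.94) and COX4L (r = 0.93) were closest to the other paralogs. Between a paralog and its own counterpart r in males lay between -0.26 (ATPsynbetaL) and 0.18 (COX7AL2) over the 20 pairs.

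**Figure D5:**
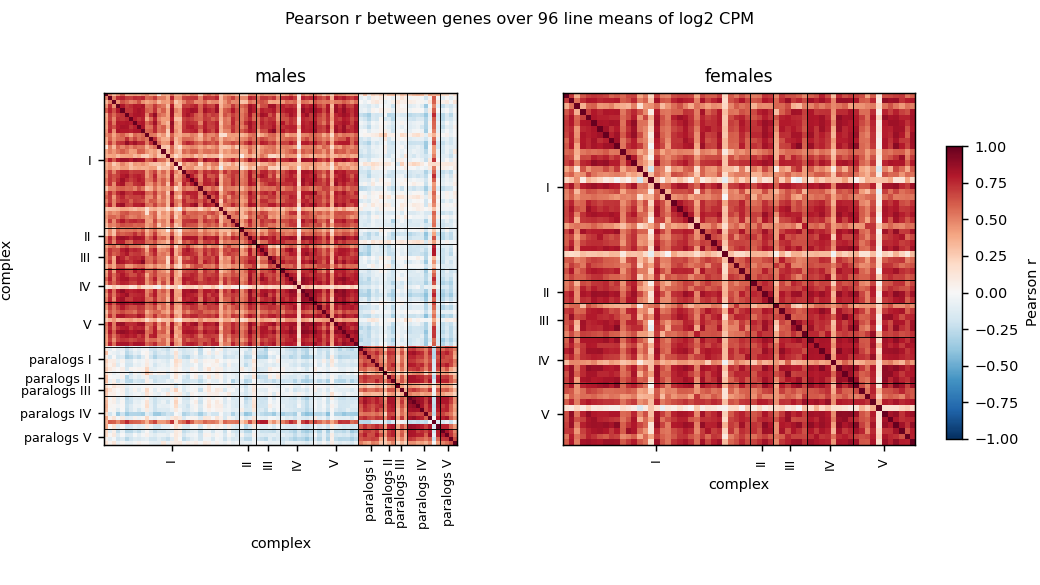
Pearson r between genes over 96 line means of log2 CPM, for 62 general genes and 24 paralogs in males (left) and 62 general genes in females (right), ordered by complex. The general genes form a block (mean r 0.59 in males and 0.62 in females), the paralogs another (0.53), and the stripe among the paralogs of complex IV that follows the general genes is COX7AL2.

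Other genes of the pathway were set beside these. Of 9 chain genes whose names fall outside the rule 8 were called higher in males and 1 lower. The list held 10 genes, but Cyt-c-p matched no gene by symbol and was left out. They include Cyt-c-d, the cytochrome c known from the male germ line, at a log2 fold change of 8.88 ± 0.17, and Cyt-c1L, a copy of cytochrome c1, at 6.56 ± 0.13. A TCA cycle list of 12 genes also held Pdha and Pdhb, subunits of pyruvate dehydrogenase. Of the 12, 9 were called higher (Pdhb among them) and 3 lower (Pdha among them), with a median log2 fold change of 0.39. Ogdh, a subunit of oxoglutarate dehydrogenase, had the highest at 0.70 ± 0.03. All 7 genes that regulate mitochondrial genes or copy mitochondrial DNA were called lower in males, among them srl, the fly homolog of PGC-1, at -3.91 ± 0.04 and TFAM, which packages mitochondrial DNA, at -1.58 ± 0.03. Over line means the score of the general genes correlated with the other chain genes at r = 0.91 in males and 0.75 in females. Its r with the TCA cycle list was 0.85 in males and 0.87 in females, and its r with the regulators 0.17 in males and -0.44 in females.

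Markers of tissues varied with some of these values. All 11 flight muscle genes were called higher in males, with a summed level of 15080 to 32060 CPM in males (median 21870) and 5991 to 24730 CPM in females (median 10490). Over line means the score of the general genes correlated with the flight muscle genes at r = 0.63 in males and 0.72 in females. Its r with 5 ovary germline genes was -0.03 in males and -0.62 in females. The summed level of those germline genes was 13.4 to 220 CPM in males and 658 to 2135 CPM in females. All 18 testis genes were called higher in males, with a summed level of 2636 to 6569 CPM in males and 5.70 to 207 CPM in females, and in males the score of the paralogs correlated with them at r = 0.90 (0.89 with pool means subtracted). All 6 nervous system genes were also called higher in males, at 428 to 1064 CPM in males and 111 to 643 CPM in females. Their r with the general score was -0.35 in males and 0.30 in females. For the other lists r with that score in males and females was -0.06 and -0.25 (ovary follicle), 0.12 and 0.30 (fat body) and 0.03 and 0.32 (midgut). It was -0.18 and -0.05 for testis genes and 0.08 and -0.06 for accessory gland genes. The part of the RNA of muscle, ovary, testis, nervous system and the other tissues in the values of the chain genes was not tested.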

How the data were processed

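RNA of whole-fly pools was depleted of ribosomal RNA and sequenced from stranded libraries. Per the study's methods and processing notes, the authors trimmed reads with cutadapt 1.6, removed ribosomal, microbial and repeat reads with BWA 0.7.10, aligned the rest with STAR 2.4.0e to BDGP5 and counted reads per gene with HTSeq; the deposited values are raw counts. HTSeq's own summary lines (2.85% without a feature, 1.39% ambiguous, and 25.8% of alignments not unique) stayed out of library sizes. Reads of near-identical copies can be lost this way. The labels gave line, sex and replicate.

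Counts were tested with edgeR 4.0.16 (R 4.3.3, TMM, quasi-likelihood F-test, Benjamini-Hochberg adjustment, genes with a mean of at least 5 counts). The dispersion trend was estimated on 500 genes spread over the range of levels, because a fit on all genes took too long, a choice made after the data were seen. Standard errors came from limma 3.58.1 and alternative size factors from DESeq2 1.42.0. Log2 CPM used a prior count of 2. The scripts were tested on simulated data, in which the interaction test found fewer of the changed genes than the sex and line tests at the same size of change, and fewer than first set as the aim. Same-numbered replicates of the sexes were checked for pairing. Alternatives changed the scaling, filter, tool, prior count, replicates, flow cells and lines.

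The genes and lists were chosen with earlier results of these data known. Listed symbols that matched no gene were left out: Cyt-c-p, Nc73EF, Fum1, muc, tam, nos, vas, wupA, FASN1 and para. The rule for named genes took each paralog and counterpart, the 5 largest line F values in each sex, the 5 general genes with the largest sex difference each way, the 3 largest interaction F values, the highest and lowest level per length in each complex, and the 4 Sdh subunits; others were named after their values were seen. Exon lengths, chromosome arms and overlaps between genes came from the BDGP6 annotation, and no coordinates are given. Replicates are separate pools per the labels, and whether they came from separate cultures was not given, so p-values measure the spread between these libraries.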

Additional observations from a re-analysis of the deposited data

Results flagged for a closer look

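The sex by line interaction in edgeR over 384 libraries, a test of whether the effect of line differed between males and females, passed for 21 named paralogs. Of these 16 were under the count filter in females, so no line effect in females was measured for them and passing is not read as a difference between the sexes; the other 5 were ND-51L1, ND-51L2, UQCR-11L, COX5BL and COX7CL. F was 4.66 for COX7AL, 4.60 for COX6CL, 3.56 for SdhBL, 3.51 for COX6AL2, 3.42 for UQCR-14L and 3.07 for COX4L. It was 2.97 for ND-51L1, 2.90 for ATPsynGL, 2.88 for ND-49L, 2.85 for SdhCL, 2.83 for ND-24L, 2.73 for SdhAL and 2.65 for UQCR-11L. For the rest it was 2.46 for ND-B14.5AL and for ATPsynCF6L, 2.34 for ATPsynbetaL, 2.29 for UQCR-6.4L, 2.24 for ND-51L2, 2.23 for COX5BL, 2.10 for ND-20L and 1.61 for COX7CL. Over the 79 lines without RNA of the other sex UQCR-14L had F = 1.77 (edgeR adjusted p = 0.964), ND-B14.5AL F = 1.53 (adjusted p = 0.453), ND-20L F = 2.04 (adjusted p = 0.365) and UQCR-6.4L F = 1.80 (adjusted p = 0.0772). Of the general genes ND-B14 had F = 1.54 and UQCR-11 F = 1.47, and over those 79 lines the edgeR adjusted p was 0.165 for ND-B14 and 0.0624 for UQCR-11.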

How the results depend on the processing

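Of the 87 chain genes 62 were called higher and 11 lower in males, beside 57.8% and 37% of all genes tested. Over all genes 6690 of 18062 were called lower, 6037 with DESeq2 size factors and 6153 with total counts. Of the chain genes the number called lower was 20 with no filter, and 6 with DESeq2 size factors and with total counts. It was 3 under a filter of 50 counts and 17 with flow cell as a covariate (limma). In the 44 lines on flow cells A and B, an alternative chosen after seeing the data, it was 20. Leaving out 1 replicate gave 7 to 20. Apart from the scalings, no count over all genes is given beside these numbers. They are thus not read as changes particular to the chain genes. In females the line effect passed for 58 genes (72.2% of all genes), 37 without lines with RNA of the other sex (72.6%) and 20 in the 44 lines (51.9%). Mean r of general genes in females (0.617) was 0.577 with total counts, 0.595 without lines with RNA of the other sex, 0.665 in the 44 lines and 0.544 in the remaining 52, and 0.634 to 0.644 without 1 replicate; in males (0.593) it was 0.578 to 0.690 without 1 replicate. For the paralogs (0.528) it was 0.573 by Spearman, 0.481 with total counts, 0.571 without lines with RNA of the other sex, 0.573 in the remaining 52 lines, and 0.492 to 0.542 without 1 replicate.

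Some small log2 fold changes turned their sign. With DESeq2 size factors they were 0.080 for COX5B, 0.064 for COX7B, 0.10 for ATPsynCF6 and 0.044 for ATPsynbeta. With total counts they were 0.053 for COX5B, 0.037 for COX7B, 0.075 for ATPsynCF6 and 0.016 for ATPsynbeta. Under the filter of 50 counts they were 0.021 for ND-ACP, 0.032 for UQCR-11, 0.18 for COX5B, 0.025 for COX7A, 0.17 for COX7B, 0.21 for ATPsynCF6 and 0.15 for ATPsynbeta. With no filter they were -0.031 for ND-B14.5A, -0.074 for ND-MLRQ, -0.0011 for UQCR-14, -0.045 for UQCR-6.4, -0.050 for COX7C and -0.054 for ATPsynG. In the 44 lines they were -0.020 for ND-20, -0.048 for ND-B14.5A, -0.076 for ND-MLRQ, -0.15 for UQCR-6.4, -0.15 for COX7C and -0.13 for ATPsynG. With flow cell as a covariate they were -0.0066 for ND-B14.5A, -0.0029 for ND-MLRQ, -0.099 for UQCR-6.4, -0.095 for COX7C and -0.074 for ATPsynG, and without lines with RNA of the other sex -0.0061 for ND-MLRQ. Leaving out 1 replicate gave -0.0022 to 0.18 for ND-20, -0.87 to 0.074 for ND-AGGG, -0.055 to 0.18 for ND-B14.5A, -0.017 to 0.051 for ND-MLRQ, -0.12 to 0.22 for UQCR-6.4, -0.17 to 0.015 for COX7B, -0.096 to 0.18 for COX7C, -0.15 to 0.080 for ATPsynCF6 and -0.13 to 0.20 for ATPsynG. Scaling and filter moved the 62 general genes alike, by 0.149 to 0.150 with DESeq2 size factors, 0.120 to 0.123 with total counts, 0.246 to 0.253 under the filter of 50 counts and -0.079 to -0.078 with no filter, so these turns follow a common shift. Under the other alternatives the shift differed between genes, and the cause was not tested. Over all 87 genes and 11 alternatives the sign changed in 28 genes, 14 of them called.

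Same-numbered male and female replicates of a line did not vary together (median r 0.058, above 0.1 in 21 of 96 lines). With the replicate block in limma 70 chain genes were called higher and 8 lower in males. No count over all genes is given beside these calls, so they are not read as particular to the chain genes. With the same block the line effect passed for 87 in males (92.8% of all genes) and 68 in females (83.7% of all genes). The interaction passed for 27 (65.8% of all genes). Line and interaction effects have no value without 1 replicate, since no spread within a line is left. The paralog had the larger sex difference in every line in 17 of 20 pairs, and in 17 or 18 under each alternative run. Most of these paralogs were near the floor in females, so this count was nearly fixed in advance under each alternative. Depth limits the paralogs in females, most of which had under 5 counts in a library.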
